A study of Homo sapiens with 8 samples.

Results

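The BCL2 family was followed in SUM159, a human triple-negative breast cancer cell line, through 10 genes taken by name, with no measured value in the rule. They were the pro-survival genes BCL2L1, MCL1 and BCL2, the effectors BAX and BAK1, and the BH3-only genes BID, BAD, BCL2L11, BBC3 and PMAIP1. All 10 were found among the 18955 genes of the table. Single-cell RNA libraries were made from cells carrying a lentiviral DNA barcode library that had been selected in drug for up to 18 passages. The 8 libraries were pre-treatment cells (602 cells), DMSO vehicle (459), 0.6 nM paclitaxel (752), 100 nM JQ1 in the paclitaxel experiment (JQ1-A, 697), JQ1 with paclitaxel at the same doses (643), 160 nM palbociclib (693), 100 nM JQ1 in the palbociclib experiment (JQ1-B, 868) and JQ1 with palbociclib at the same doses (1024). JQ1 displaces BET bromodomain proteins from chromatin, palbociclib blocks CDK4 and CDK6, and paclitaxel stabilises microtubules. The palbociclib experiment had no vehicle library, parallel cultures of a treatment were pooled before cells were captured, and a JQ1+palbociclib culture was lost during selection, so each library stands for 1 pool of a single cell line.

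BCL2 family proteins decide whether the outer mitochondrial membrane is opened, the committing step of the intrinsic death pathway. Pro-survival proteins hold the effectors BAX and BAK in check, and BH3-only proteins release this hold or activate the effectors directly. Several BH3-only genes are switched on by stress, which makes the levels of the family a common readout of how close a tumour cell is to death. The libraries measured RNA only. UMIs, which are counts of tagged RNA molecules, came from the 3′ ends of transcripts, so they do not grow with transcript length and do not separate splice forms such as the long and short products of BCL2L1. Capture can still differ between genes, and fewer expressing cells cannot be told apart from less RNA per cell in the summed values.

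Library totals ran from 10621159 UMIs in DMSO to 24240835 in JQ1+palbociclib, and 13 cell barcodes occurred in more than 1 library (26 cells of 5738). The label of the line was checked on markers. VIM lay between 3279 and 4502 CPM (a gene's UMIs scaled to an equal total in every library), while ESR1 and PGR, the hormone receptor genes that triple-negative lines lack, did not exceed 0.139 CPM. ERBB2 lay between 5.32 and 12 CPM and PTPRC, a leukocyte gene, at or below 0.471 CPM. General features also differed between the libraries. Mitochondrial UMIs made up, in the median cell, 3.72 to 3.96% in pre-treatment, DMSO and paclitaxel and 4.69 to 7.18% in the other 5 libraries, and the summed level of the S-phase genes was 1525 to 1924 CPM in the first 3 and 873 to 1045 CPM in the others. The part of these features in the results below was not tested. Values within G1 cells are given for some members, but G1 was called within each library.

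Genes with at least 5 CPM in at least 2 libraries were compared by exposure to each drug, with JQ1, palbociclib and paclitaxel as additive terms in edgeR's quasi-likelihood test. Of the 10 members, 8 passed this minimum. BCL2 (0.785 to 2.26 CPM) and BCL2L11 (1.70 to 6.19 CPM) did not, and were tested only with a minimum of 1 CPM. For JQ1, 4 of the 8 members were called at an adjusted p under 0.05, beside 37.6% of all 9288 genes tested. BCL2L1 was higher, where 17.8% of all genes were called higher. PMAIP1, BAK1 and BID were lower, where 19.7% of all genes were called lower. In the same 4 members the libraries with JQ1 did not overlap with those without it after TMM scaling, which adjusts library totals for RNA composition, beside 24.5% of all genes. A call for JQ1 was common in this data set, so 4 calls among 8 members say little about the family as a group, and the members are described 1 by 1. With libraries joined in 3 matched pairs by experiment and partner drug, 0 of 8 members were called for JQ1 by edgeR, where 3.94% of all genes were. Scaling mattered for JQ1. With TMM the median log2 difference over all genes was -0.003, and 1655 genes were called higher and 1833 lower. With library totals alone the median was -0.20 and the split 862 higher and 2925 lower. Fitted differences below are therefore relative to the TMM-scaled median gene, unless another scaling is named. CPM values and ratios of 1 library to another are not TMM-scaled unless this is stated.

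**Figure D1:**
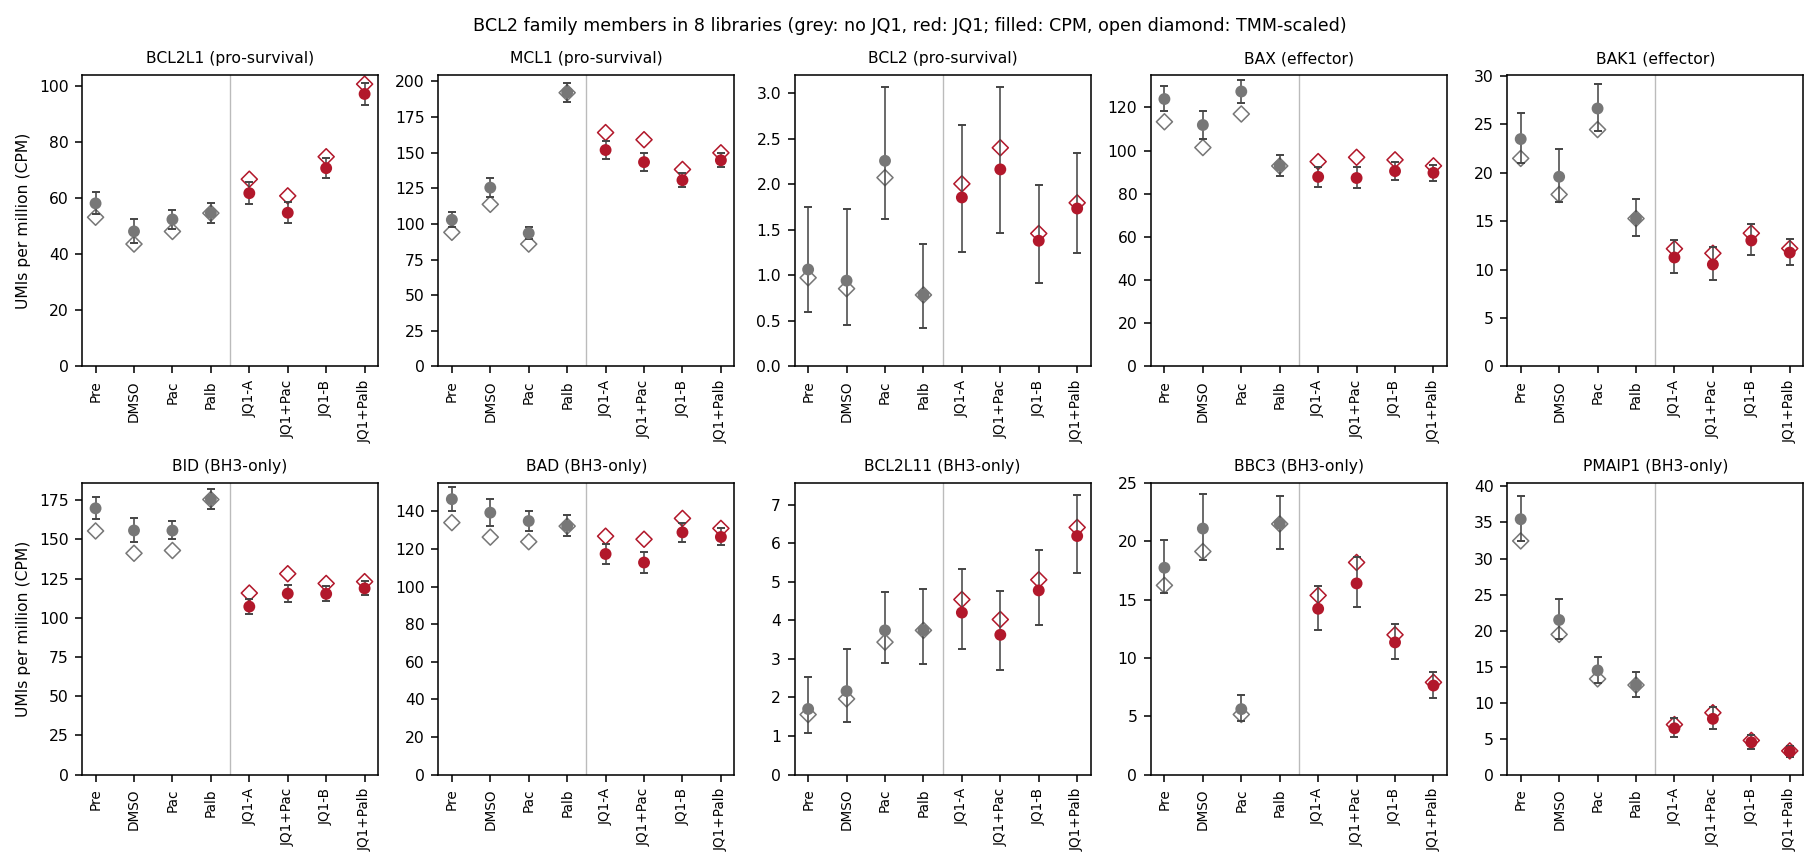
Level of each of the 10 members (vertical axis, CPM from 0) in the 8 libraries, with filled points for CPM, bars for 95% Poisson counting intervals and open diamonds for TMM-scaled CPM. Libraries with JQ1 (red) lie below all libraries without it (grey) for PMAIP1, BAK1 and BID on both scales, and above them for BCL2L1 only after TMM scaling.

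The pro-survival genes did not move as 1 group. BCL2L1 encodes BCL-XL, a long-lived guardian of the mitochondrial membrane. It stood at 58.2 CPM in pre-treatment, 48.2 in DMSO, 52.5 in paclitaxel and 54.8 in palbociclib, and with JQ1 at 61.9 (JQ1-A), 54.9 (JQ1+paclitaxel), 70.8 (JQ1-B) and 97.3 (JQ1+palbociclib). JQ1+palbociclib was the highest library, and JQ1+paclitaxel lay below pre-treatment in CPM, so the groups overlapped by that 1 library before TMM scaling. Fitted on log2 values, the JQ1 difference was 0.58 ± 0.12 (SE; Benjamini-Hochberg adjusted p = 0.00824 with edgeR), a fold of 1.49. With library totals alone it was 0.38 and no longer called (adjusted p = 0.0632).

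MCL1, whose product turns over fast and guards cells against BAK and NOXA, followed another pattern. It was at 103 CPM in pre-treatment, 125 in DMSO and 93.5 in paclitaxel, but at 192 in palbociclib, the highest value of the 8. The JQ1 libraries were close together, with 152 CPM in JQ1-A, 143 in JQ1+paclitaxel, 131 in JQ1-B and 145 in JQ1+palbociclib. They lay inside the range of the libraries without JQ1 because of palbociclib alone, and the JQ1 difference of 0.40 ± 0.19 was not called (adjusted p = 0.124). Without the palbociclib library it was 0.69 and without JQ1+palbociclib 0.66, and both were called (adjusted p = 0.00391 and 0.00484). Within the paclitaxel experiment MCL1 was higher with JQ1 (TMM-scaled 159 to 164 CPM against 85.8 to 114), and within the palbociclib experiment it was lower (138 to 150 against 192).

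BCL2 itself was close to the lower end of what these libraries can measure. Its level was 1.06 CPM in pre-treatment, 0.942 in DMSO, 2.26 in paclitaxel, 0.785 in palbociclib, 1.85 in JQ1-A, 2.16 in JQ1+paclitaxel, 1.38 in JQ1-B and 1.73 in JQ1+palbociclib. Libraries with and without JQ1 overlapped, and the counting intervals of all neighbours in the order of levels did too. With the 1 CPM minimum the JQ1 difference was 0.74 ± 0.28 and was not called (adjusted p = 0.0723). It was 0.99 and called without paclitaxel (adjusted p = 0.0415) or JQ1+paclitaxel (0.0409), and 0.25 in G1 cells. The share of all genes called in those refits was not counted. Between 59.4% and 77.6% of all pro-survival UMIs came from MCL1, with the highest share in palbociclib and the lowest in JQ1+palbociclib.

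The effectors form the pores in the outer membrane. BAK1, which encodes the effector that sits on mitochondria in resting cells, was at 23.5 CPM in pre-treatment, 19.6 in DMSO, 26.6 in paclitaxel and 15.3 in palbociclib. It fell to 11.2 CPM in JQ1-A, 10.5 in JQ1+paclitaxel, 13 in JQ1-B and 11.8 in JQ1+palbociclib, with no overlap between the groups. The difference was -0.65 ± 0.14 (adjusted p = 0.0105), a fold of 0.639. BAX, the effector that waits in the cytosol, was at 124 CPM in pre-treatment, 112 in DMSO, 127 in paclitaxel and 93.0 in palbociclib, against 87.3 to 90.5 CPM in the 4 JQ1 libraries. These groups did not overlap in CPM but did after TMM scaling (92.9 to 96.9 against 92.9 to 117), and the difference of -0.15 ± 0.09 was not called (adjusted p = 0.1996). With library totals alone it was -0.35 and was called (adjusted p = 0.0344).

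PMAIP1, which encodes the BH3-only protein NOXA that binds MCL1, changed most among the members. It was at 35.5 CPM in pre-treatment, 21.5 in DMSO, 14.5 in paclitaxel and 12.4 in palbociclib. The JQ1 libraries were all lower, at 6.43 CPM in JQ1-A, 7.74 in JQ1+paclitaxel, 4.48 in JQ1-B and 3.18 in JQ1+palbociclib, so that the highest and lowest of the 8 libraries differed by a factor of 11.2. The fitted difference was -1.72 ± 0.30 (adjusted p = 0.00442), a fold of 0.303. Libraries without JQ1 were themselves spread widely, and PMAIP1 was 0.605 times as high in DMSO as in pre-treatment (95% counting interval 0.515 to 0.709), although neither library had drug.

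BID, the BH3-only protein that links death receptors to mitochondria once caspases cut it, changed less. It lay at 170 CPM in pre-treatment, 156 in both DMSO and paclitaxel and 176 in palbociclib, and at 107 in JQ1-A, 115 in JQ1+paclitaxel, 115 in JQ1-B and 119 in JQ1+palbociclib. The groups did not overlap. The difference of -0.33 ± 0.09 (adjusted p = 0.0252) was small, and its call was lost without pre-treatment (-0.30, adjusted p = 0.0876), JQ1-A (-0.31, 0.0947), JQ1-B (-0.34, 0.0695), palbociclib (-0.23, 0.0788) or JQ1+palbociclib (-0.26, 0.0553). It was also lost with experiment as a term (-0.34, 0.0686) and in 3 matched pairs (-0.32, 0.192). BAD, a BH3-only protein held inactive by survival kinases through phosphorylation, had 146.5 CPM in pre-treatment, 139 in DMSO, 135 in paclitaxel and 132 in palbociclib, and 113 to 129 CPM in the JQ1 libraries. After TMM scaling the groups overlapped (125 to 136 against 124 to 134), and the difference was 0.01 ± 0.08 (adjusted p = 0.951).

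BCL2L11, which encodes BIM, an activator that binds every pro-survival protein, went the other way from PMAIP1. It was at 1.70 CPM in pre-treatment, 2.17 in DMSO, 3.74 in paclitaxel and 3.75 in palbociclib, and at 4.20 in JQ1-A, 3.63 in JQ1+paclitaxel, 4.78 in JQ1-B and 6.19 in JQ1+palbociclib. With the 1 CPM minimum it was called higher for JQ1 (0.91 ± 0.24, adjusted p = 0.0205), beside 33.1% of the 12403 genes of that fit. The call rested on few UMIs, 23 in DMSO and 24 in pre-treatment, and was lost without pre-treatment (0.75, adjusted p = 0.0692), DMSO (0.86, 0.0685), JQ1-A (0.88, 0.0637) or JQ1-B (0.81, 0.0653) and in G1 cells (0.82, 0.0693). It was also lost with experiment as a term (0.81, 0.0641) and in 3 matched pairs (0.69, 0.165). BBC3, which encodes PUMA, a BH3-only protein that binds the pro-survival proteins, overlapped fully between the groups. It ranged from 5.61 CPM in paclitaxel to 21.5 in palbociclib without JQ1 and from 7.63 in JQ1+palbociclib to 16.4 in JQ1+paclitaxel with it, and the JQ1 difference was -0.15 ± 0.43 (adjusted p = 0.8002). It was -0.73 and called without paclitaxel (adjusted p = 0.0367) or JQ1+paclitaxel (0.0368), beside 33.1 and 33.4% of all genes. Without palbociclib it was 0.33.

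Sequence upstream of the canonical transcript start is shown for the 3 members that were lower with JQ1. Of the 250 bases before each start in GRCh37, only the longest stretch outside annotated exons of the gene is printed. Capitals mark GGGCGG, the GC box bound by SP factors, on either strand.

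PMAIP1 (chr18:57566978-57567227, plus strand): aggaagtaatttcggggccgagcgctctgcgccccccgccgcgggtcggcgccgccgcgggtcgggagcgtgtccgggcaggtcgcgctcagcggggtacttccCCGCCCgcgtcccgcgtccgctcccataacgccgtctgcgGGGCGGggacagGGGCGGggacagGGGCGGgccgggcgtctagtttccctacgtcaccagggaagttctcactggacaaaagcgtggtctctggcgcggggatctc

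BAK1 (chr6:33548071-33548303, minus strand): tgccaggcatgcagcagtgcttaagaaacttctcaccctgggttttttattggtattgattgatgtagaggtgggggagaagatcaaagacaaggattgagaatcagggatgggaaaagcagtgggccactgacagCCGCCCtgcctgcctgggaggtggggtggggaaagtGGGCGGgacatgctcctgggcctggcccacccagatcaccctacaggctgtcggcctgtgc

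BID (chr22:18257262-18257405, minus strand): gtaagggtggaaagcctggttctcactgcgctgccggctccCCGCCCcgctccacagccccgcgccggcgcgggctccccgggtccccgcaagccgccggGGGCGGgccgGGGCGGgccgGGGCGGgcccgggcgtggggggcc

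The full 250-base windows held 4 GC boxes in PMAIP1, 2 in BAK1 and 4 in BID. A GC box on either strand occurred in 59.1% of the windows of 19874 protein-coding genes, so its presence set none of these members apart. Searched in the same way, the E-box CACGTG occurred in 7.87% of all windows and 4 times in that of BAX. It is the letter sequence that MYC and related factors can bind. The cyclic AMP element TGACGTCA (2.40% of windows) and the TATA box TATAAA (9.26%) were found in none of the windows of PMAIP1, BAK1 and BID. BCL2L1 and BCL2 had no match to any of the 4 motifs. A match is a description of letters and shows no binding.

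In the annotation of GRCh37, BCL2L1 lies on chromosome 20 (30252255 to 30311792, minus strand, 3 exons in the canonical transcript), PMAIP1 on chromosome 18 (57567228 to 57571537, plus strand, 2 exons), BAK1 on chromosome 6 (33540324 to 33548070, minus strand, 6 exons), BID on chromosome 22 (18216904 to 18257536, minus strand, 6 exons) and BBC3 on chromosome 19 (47724079 to 47736023, minus strand, 4 exons). None of these overlaps another gene on its own strand, apart from a microRNA inside BID. MCL1 (chromosome 1, 150533371 to 150552214, minus strand) shares its strand with ADAMTSL4-AS1 and a pair of small RNA pseudogenes, so that its count is less certain. BCL2 (chromosome 18, 60790579 to 60987361, minus strand) also holds other genes on its strand. BAX (chromosome 19, 49458072 to 49465055, plus strand), BCL2L11 (chromosome 2, 111876955 to 111926021, plus strand) and BAD (chromosome 11, 64037302 to 64052176, minus strand) hold none. BCL2L1, MCL1, BCL2, BAK1, BBC3, BCL2L11 and BAD have genes on the opposite strand, and the sources used here do not state whether counting used strand.

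**Figure D2:**
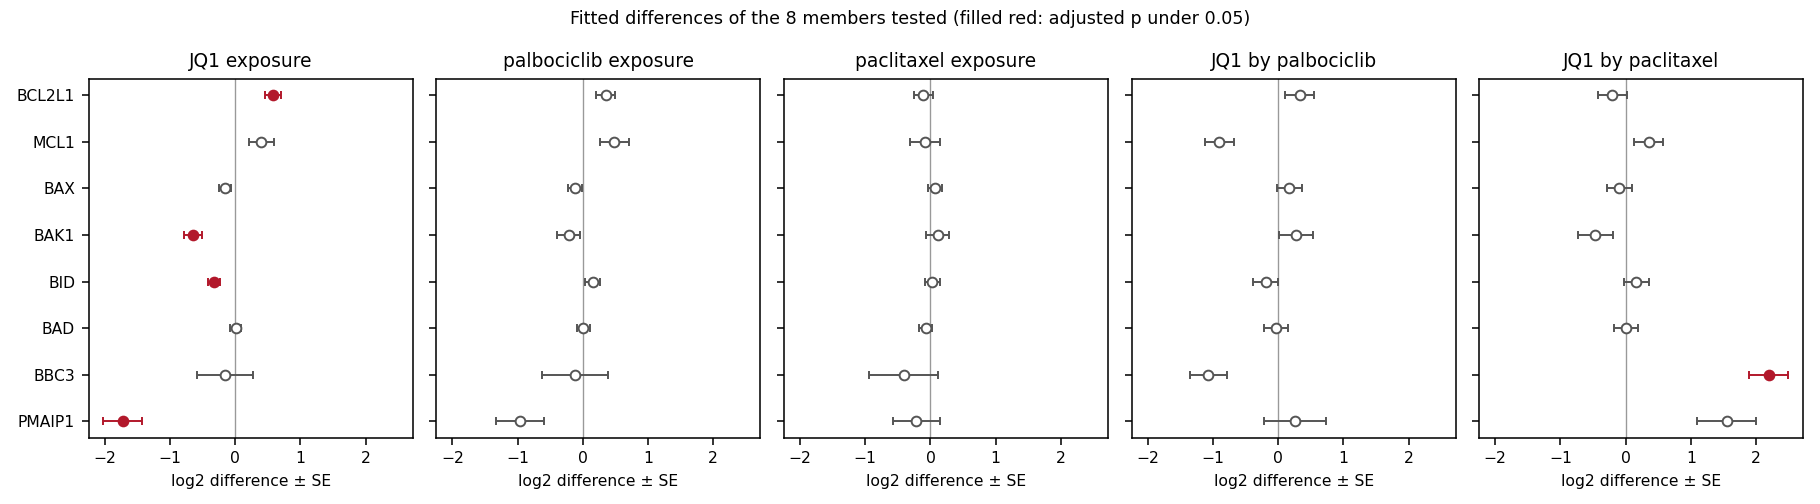
Fitted log2 differences (horizontal axis, ± SE) of the 8 members tested, for each drug exposure and for the interaction of JQ1 with each partner drug, with filled red points at an adjusted p under 0.05. For JQ1 BCL2L1 lies above 0 and BAK1, BID and PMAIP1 below it, and among the interactions BBC3 for JQ1 by paclitaxel is the only filled point.

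Palbociclib and paclitaxel were each present in 2 libraries and absent from 6. In the palbociclib comparison edgeR's quasi-likelihood test called 0 of the 8 members, where 0.28% of all genes were called, and 2 members had an unadjusted p under 0.05. DESeq2 also called 0 members, where it called 5.54% of all genes. The lowest unadjusted p values were those of PMAIP1 (-0.96 ± 0.37, adjusted p = 0.179) and BCL2L1 (0.35 ± 0.14, adjusted p = 0.202), and MCL1 had a difference of 0.48 ± 0.23 (adjusted p = 0.248). Without JQ1+palbociclib, the difference of MCL1 was 0.95 and was called (adjusted p = 0.0260), but so were 10.2% of all genes. That refit keeps palbociclib in 1 library, assumed to vary like the others. For paclitaxel, edgeR called 0 members, where 0.0% of all genes were called, and 0 members had an unadjusted p under 0.05. DESeq2 called 0 members and 9 of all genes. The paclitaxel values of the members lay between -0.41, that of BBC3 (SE 0.53), and 0.11, with PMAIP1 at -0.22 ± 0.37. Both changed sign when 1 library was left out: without paclitaxel they were 0.59 and 0.52, and without JQ1+paclitaxel -1.96 and -0.94.

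The additive terms average a drug over its partner. An interaction model therefore asked whether the JQ1 difference depended on the partner drug. Its 2 residual degrees of freedom came from pre-treatment beside DMSO and from JQ1-A beside JQ1-B. Paclitaxel, JQ1+paclitaxel, palbociclib and JQ1+palbociclib were 1 library each. Their own spread was not measured, and was assumed to be like that of those pairs. For JQ1 by paclitaxel 1 of 8 members was called, beside 0.388% of all genes. This was BBC3, whose interaction was 2.19 ± 0.30 (log2, SE, adjusted p = 0.0294). BBC3 was at 17.7 CPM in pre-treatment, 21.1 in DMSO and 21.5 in palbociclib, and at 5.61 CPM in paclitaxel. With JQ1 it was at 14.2 CPM in JQ1-A, 11.3 in JQ1-B and 16.4 in JQ1+paclitaxel, but at 7.63 in JQ1+palbociclib. Paclitaxel therefore held 0.266 times the level of DMSO (95% counting interval 0.208 to 0.338), whereas JQ1+paclitaxel held 1.15 times that of JQ1-A (0.957 to 1.39). The call was lost without JQ1-A (2.38, adjusted p = 0.1003) or JQ1-B (2.02, adjusted p = 0.283), refits that leave 1 residual degree of freedom.

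For JQ1 by palbociclib 0 of 8 members were called with edgeR, beside 0.0108% of all genes, and 2 had an unadjusted p under 0.05. DESeq2 called 0 members, beside 0.366% of all genes. The lowest unadjusted p values were those of MCL1 (-0.90 ± 0.23, adjusted p = 0.147) and BBC3 (-1.07 ± 0.29, adjusted p = 0.156). Adding JQ1 to palbociclib gave 0.752 times the MCL1 of palbociclib alone (0.717 to 0.790), where JQ1-A had 1.21 times that of DMSO (1.13 to 1.29). PMAIP1, lower with JQ1 in each of the 3 matched pairs, was at 0.299 (0.235 to 0.379) of DMSO in JQ1-A, at 0.535 (0.425 to 0.670) of paclitaxel in JQ1+paclitaxel and at 0.255 (0.194 to 0.333) of palbociclib in JQ1+palbociclib. Its JQ1 by paclitaxel interaction was 1.55 ± 0.45 and was not called (adjusted p = 0.168). These ratios compare 1 library with 1, are not TMM-scaled, and their intervals cover counting error only. With TMM scaling the MCL1 ratios were 0.780 for JQ1+palbociclib to palbociclib and 1.44 for JQ1-A to DMSO. Those of PMAIP1 were 0.357, 0.646 and 0.265 in the order given. Without pre-treatment, MCL1 (-0.77, adjusted p = 0.0102) and BBC3 (-0.95, 0.0138) were called for JQ1 by palbociclib and PMAIP1 for JQ1 by paclitaxel (1.12, 0.00947). Without DMSO the same 3 were called (-1.04, -1.19 and 1.86), and in these refits 6.48 to 12.4% of all genes were.

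**Figure D3:**
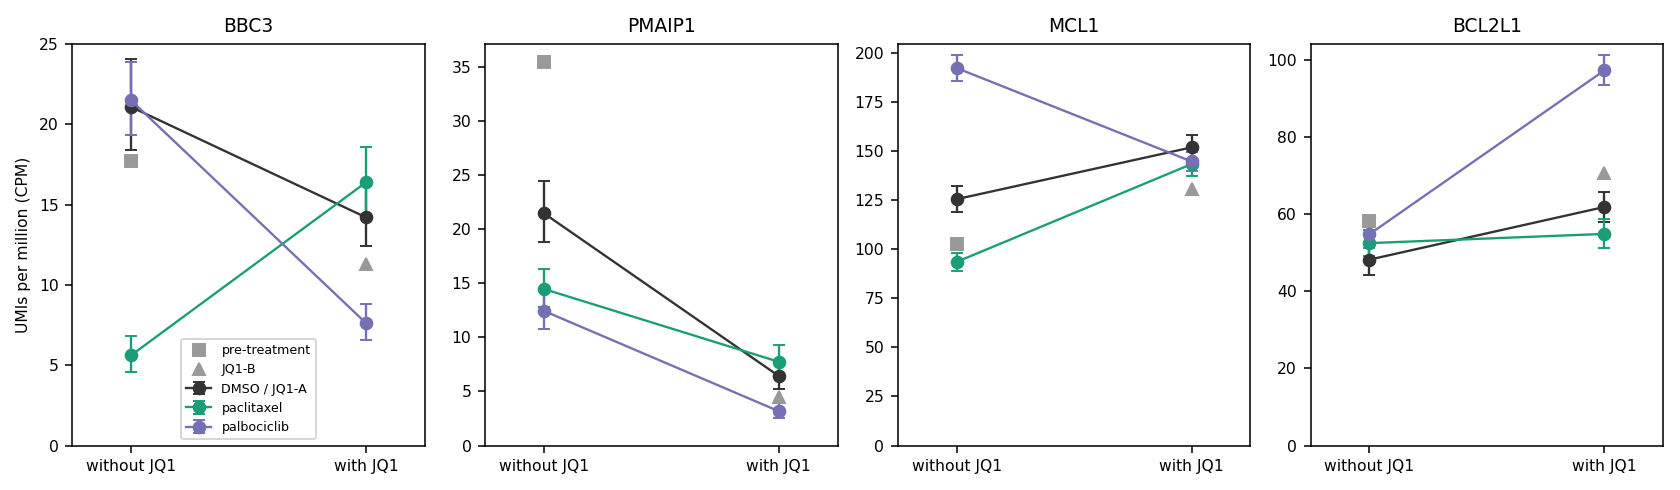
CPM (vertical axis from 0) of BBC3, PMAIP1, MCL1 and BCL2L1 without and with JQ1, joined for DMSO and JQ1-A, for paclitaxel and for palbociclib, with 95% Poisson counting intervals. The paclitaxel line of BBC3 rises from 5.61 to 16.4 CPM while the other 2 fall, and all 3 lines of PMAIP1 fall.

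JQ1+palbociclib stood at an end of the order for several members. It had the highest BCL2L1 and BCL2L11 and the lowest PMAIP1 of the 8 libraries. Beside JQ1-B, from the same experiment, it had 1.37 times the BCL2L1 (1.29 to 1.47), 1.30 times the BCL2L11 (0.997 to 1.69), 0.709 times the PMAIP1 (0.516 to 0.971) and 0.674 times the BBC3 (0.552 to 0.821). JQ1-B and JQ1-A, which had the same exposure, differed by 1.14 times in BCL2L1 (1.05 to 1.24), 0.697 in PMAIP1 (0.521 to 0.933) and 0.797 in BBC3 (0.661 to 0.961). For PMAIP1 the step from JQ1-B to JQ1+palbociclib was thus about as large as that between both libraries with JQ1 alone. JQ1+paclitaxel and JQ1-A were closer, with ratios of 0.887 in BCL2L1 (0.807 to 0.975) and 0.936 in BAK1 (0.749 to 1.17).

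The balance of the family was taken as the UMIs of the 3 pro-survival members over those of the 7 pro-death members, which needs no scaling between libraries. It was 0.313 in pre-treatment (95% counting interval 0.298 to 0.328), 0.371 in DMSO (0.351 to 0.391) and 0.316 in paclitaxel (0.303 to 0.331). With JQ1 it was 0.619 (0.593 to 0.645) for JQ1-A, 0.566 (0.541 to 0.593) for JQ1+paclitaxel, 0.551 in JQ1-B (0.530 to 0.572) and 0.670 in JQ1+palbociclib (0.648 to 0.693). Palbociclib, at 0.546 (0.525 to 0.567), had no JQ1 and stood beside the JQ1 libraries, with an interval that met those of JQ1-B and JQ1+paclitaxel. On the log2 scale the mean was -0.74 ± 0.13 with JQ1 and -1.41 ± 0.38 without (SD, n = 4 each), a difference of 0.67. The score rests on chosen members and was not tested.

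The parts of the balance differed between palbociclib and JQ1. In palbociclib the pro-death sum was 454 CPM, near the 468 CPM of paclitaxel and 471 CPM of DMSO, while the pro-survival sum was 248 CPM against 175 in DMSO. In JQ1-A both parts differed from DMSO, with 215 CPM on the pro-survival and 348 CPM on the pro-death side. Unlike their ratio, these sums depend on scaling, and they are not TMM-scaled. With TMM factors of 1.103 for DMSO and 0.9254 for JQ1-A, the pro-death gap would be narrower and the pro-survival gap wider. Most of the BH3-only UMIs, 85.2 to 93.5%, came from BID and BAD, so the sum says little about PMAIP1, BBC3 and BCL2L11. Single pairs of partners spread further than the sum. MCL1 over PMAIP1, the RNA of NOXA and its binding partner, was 2.90 in pre-treatment, 5.84 in DMSO, 6.46 in paclitaxel, 15.4 in palbociclib, 23.6 in JQ1-A, 18.5 in JQ1+paclitaxel, 29.1 in JQ1-B and 45.5 in JQ1+palbociclib. BCL2L1 over BAK1 was 1.97 to 3.58 without JQ1 and 5.21 to 8.27 with it. The first gene of this pair was called higher and the second lower in these libraries, so its separation adds nothing to those calls. PMAIP1 was also called lower, and its highest and lowest libraries differed by a factor of 11.2, against 2.06 for MCL1. The spread of MCL1 over PMAIP1 therefore adds nothing to the call of PMAIP1. BCL2L1 over BAX was 0.412 to 0.589 without JQ1 and 0.629 to 1.08 with it. Because levels of different genes are captured with different efficiency, only the change of a ratio across libraries can be read, not its absolute value.

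**Figure D4:**
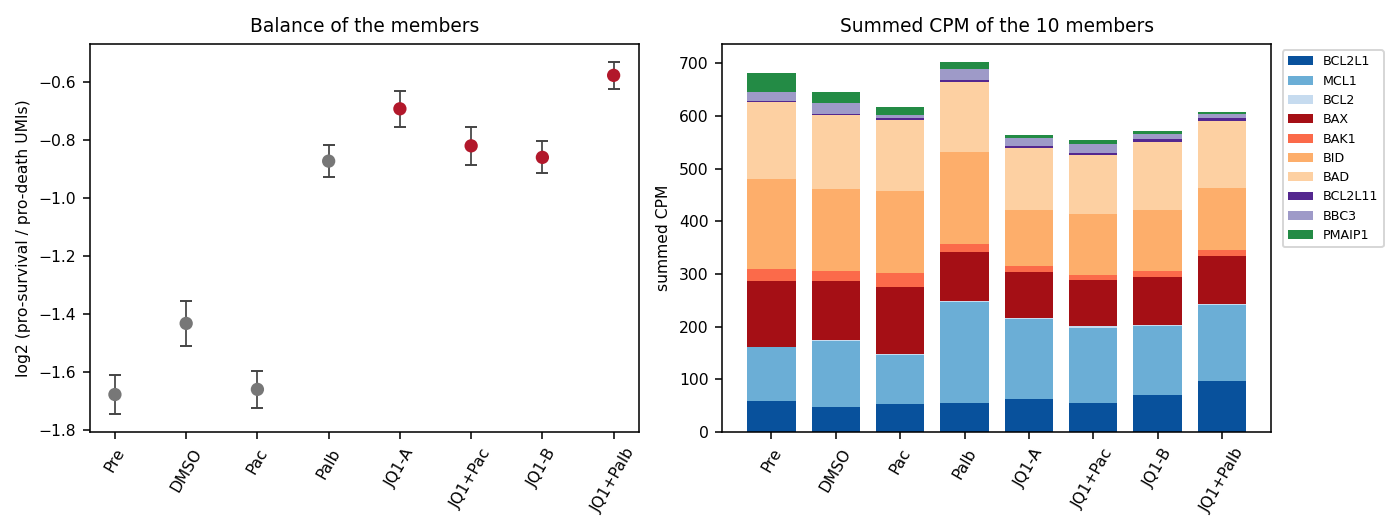
Left, log2 ratio of pro-survival to pro-death UMIs per library with 95% counting intervals, with JQ1 libraries in red. Right, CPM of the 10 members stacked from 0. Palbociclib, at -0.87, lies next to JQ1-B at -0.86 and apart from the other libraries without JQ1, whose values run from -1.68 to -1.43.

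Shares of cells with a UMI were read after each cell passing the filter of the study was thinned to 10000 UMIs, which kept 5487 cells and left out 88 shallower ones. Like CPM, they separated libraries with and without JQ1 for PMAIP1, BAK1 and BID, and also for BAX and BAD, which were not called. BAX was seen in 57.6 to 71.0% of cells without and 54.3 to 56.2% with JQ1. BAD was seen in 71.0 to 75.1% without and 64.9 to 69.7% with it. How often such shares separate over all genes was not counted. PMAIP1 was seen in 18.9% of pre-treatment cells (exact 95% binomial interval 15.8 to 22.3), 15.5% in DMSO (12.3 to 19.2), 9.15% in paclitaxel (7.16 to 11.5) and 9.52% in palbociclib (7.39 to 12.01). In the JQ1 libraries it was seen in 2.67% (JQ1+palbociclib, 1.75 to 3.89) to 7.10% of cells (JQ1+paclitaxel, 5.18 to 9.44). BAK1 was seen in 14.5 to 24.9% of cells without and 9.08 to 12.3% with JQ1, and BID in 76.9 to 80.5% without and 63.5 to 68.3% with it. At 5000 UMIs per cell the BAK1 groups overlapped (6.39 to 13.2% against 4.54 to 6.49%), as did those of BAD. Those of BID, PMAIP1 and BAX did not. No cell type without these genes exists in the libraries, so the background of free RNA could not be measured.

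BCL2L1 differed between the experiments in this measure. It was seen in 58.3% of JQ1+palbociclib cells (55.2 to 61.5) and 49.2% of JQ1-B cells (45.8 to 52.7), but in 39.8% of JQ1-A (36.1 to 43.7) and 38.3% of JQ1+paclitaxel cells (34.4 to 42.3), within the 36.7 to 40.5% of the libraries without JQ1. Thinning sets cells to equal UMIs without TMM scaling, as CPM does. MCL1 was seen in 81.7% of palbociclib cells (78.6 to 84.6), 71.3 to 76.2% of JQ1 cells and 60.1% of paclitaxel cells (56.5 to 63.7). With all UMIs kept the share for PMAIP1 ran from 5.95 to 32.2% and that for BCL2L1 from 59.2 to 80.0%. BCL2L1 and MCL1 were seen together in 43.5% of JQ1+palbociclib cells and in 23.8 to 35.7% of cells in the other libraries, and at least 1 of BCL2L11, BBC3 and PMAIP1 in 14.3% of JQ1+palbociclib cells and 18.0 to 33.5% elsewhere.

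**Figure D5:**
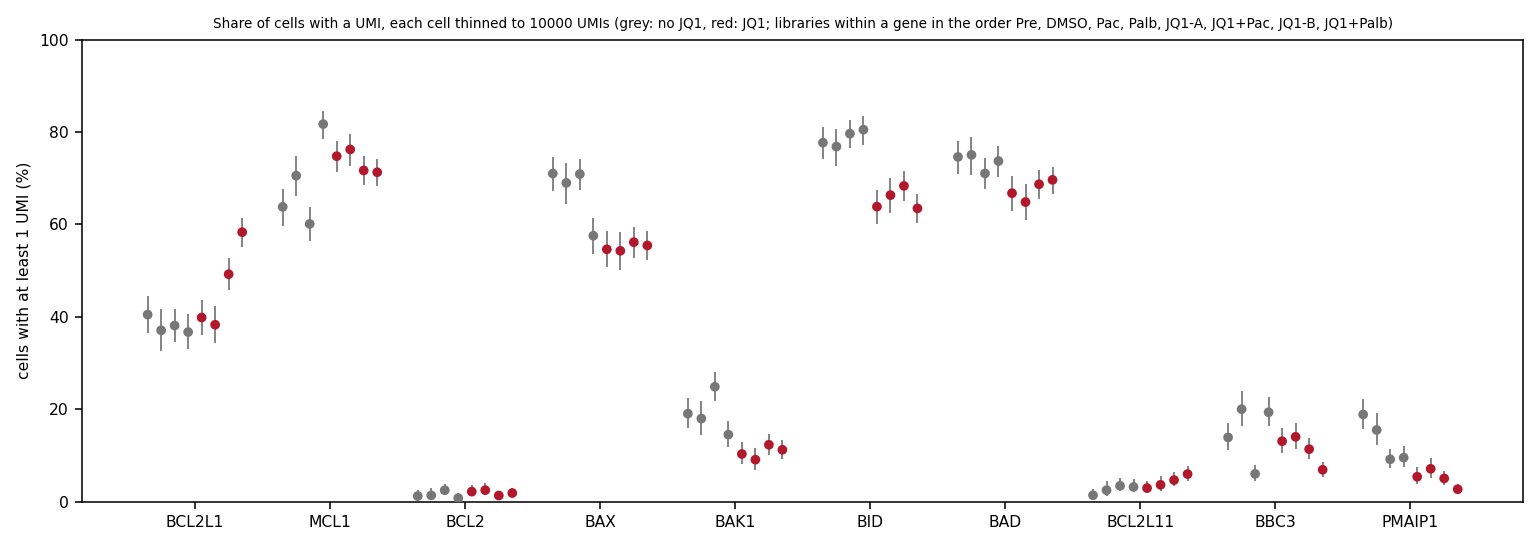
Share of cells with at least 1 UMI of each member (vertical axis, %) at 10000 UMIs per cell, with exact 95% binomial intervals and the 8 libraries side by side within each gene. JQ1+palbociclib stands highest for BCL2L1 and lowest for PMAIP1, and palbociclib highest for MCL1.

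Variation between cells was examined because a level can come from many cells or a few. PMAIP1 was uneven. With cells thinned to 10000 UMIs, at least 3 UMIs of it were found in 22 of 583 pre-treatment cells, 3.77% (exact interval 2.38 to 5.66), and these cells held 52.4% of its UMIs in that library. Such cells made up 1.35% of DMSO (0.496 to 2.91), 0.956% of paclitaxel (0.385 to 1.9603) and 1.06% of palbociclib (0.426 to 2.17), with up to 13 UMIs in a cell. In the 4 JQ1 libraries no thinned cell had more than 2 UMIs, and 0 of 650, 606, 837 and 972 cells reached 3, which allows shares of up to 0.462, 0.495, 0.358 and 0.309% by 3 counts of the total, with exact upper bounds of 0.566, 0.607, 0.440 and 0.379%. With all UMIs kept, single cells of these libraries reached 7, 4, 4 and 9 UMIs, against 13 to 23 in the libraries without JQ1. Variation in excess of counting noise, as a squared coefficient of variation, was 6.90 for PMAIP1 in pre-treatment and 4.95 in DMSO, where the medians over genes averaging 0.2 UMI or more were 0.144 and 0.122. It was not given for the other libraries, where the mean was below 0.2 UMI. BCL2L1 varied between cells beyond the median gene in 7 of 8 libraries, with values of 0.122 in JQ1-B to 0.660 in pre-treatment. MCL1 lay at 0.045 to 0.221 and BAX and BAD at or below 0.144, near the medians of 0.111 to 0.181.

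The share of cells called G1 differed between libraries, from 22.5% in paclitaxel to 50% in palbociclib, so values were also taken in these cells. Phases were scored within each library, so cells called G1 need not be in the same state in all libraries. In G1 cells PMAIP1 was at 37.4 CPM in pre-treatment, 19.8 in DMSO, 16 in paclitaxel and 11.8 in palbociclib, and at 2.55 to 7.31 CPM in the JQ1 libraries. BAK1 was at 14.6 to 28.6 CPM without and 9.12 to 12.02 CPM with JQ1, and BID at 151 to 172 against 99.9 to 107 CPM. The same 4 members were called for JQ1 as with all cells, where 23.7% of all genes were called in G1 cells. In G1 the BCL2L1 groups overlapped in CPM, at 49.7 to 57.5 without and 51.3 to 106 with JQ1. In G2M cells they also overlapped, at 42.3 to 62.7 CPM without and 47.0 to 75.3 CPM with JQ1. Some members differed between phases within a library, such as BCL2L1 in JQ1+palbociclib (106 CPM in G1 against 75.3 in G2M). BAX was lower in G1 than in G2M in JQ1-A (69.0 against 111 CPM) and in JQ1-B (71.9 against 98.1). It was also lower in JQ1+paclitaxel (72.4 against 97.0), in JQ1+palbociclib (78.6 against 106) and, without JQ1, in palbociclib (80.9 against 112). The phases were closer in pre-treatment (122 against 126), DMSO (102 against 114) and paclitaxel (128 against 126). BBC3 was higher in G1 than in G2M in JQ1+palbociclib (9.09 against 4.25 CPM) and DMSO (25.5 against 17.2).

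Genes around the family were taken from lists of other family members, mitochondrial execution, death receptors and regulators of the members. Mitochondrial execution was the list with most calls for JQ1. Of its 15 tested genes 9 were called lower, beside 19.7% of all genes, and 0 higher, beside 17.8%. The median log2 difference was -0.45, beside -0.003 over all genes. With library totals alone 12 were called lower, beside 2925 of all 9288 genes, and the median was -0.65, beside -0.20 over all genes. Among the 9 were AIFM1 (-1.13 ± 0.12), CYCS (-0.62 ± 0.17), the cytochrome c released through BAX and BAK pores, and the outer membrane channels VDAC1 (-0.58 ± 0.08), VDAC2 (-0.28 ± 0.09), which holds BAK, and VDAC3 (-0.51 ± 0.12). Also lower were ENDOG (-0.50 ± 0.12) and the caspase inhibitors XIAP (-0.35 ± 0.11) and BIRC3 (-1.62 ± 0.46), so genes that promote and that oppose death were both lower. With each library left out in turn, 3 of the 9 were called every time, AIFM1 and VDAC1 among them.

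The counts of the other lists stand beside 17.8% of all genes called higher and 19.7% called lower. In the other family members 2 of 7 tested were called higher, BNIP3L (0.81 ± 0.22), a mitophagy receptor, and BMF (1.29 ± 0.40), a BH3-only gene. Of the 9 death receptor genes tested, FAS (-0.54 ± 0.18) and its adaptor FADD (-0.58 ± 0.14) were lower and 0 higher, with a median of -0.27. This share is near that of all genes, and FAS was called in 0 of 8 refits that left out a library. Of 14 regulators, MYC (0.81 ± 0.19), FOXO3 (0.83 ± 0.20) and FBXW7 (0.59 ± 0.16), the ubiquitin ligase subunit that marks MCL1 for destruction, were higher, and NFKB1 (-0.74 ± 0.16) and ATF4 (-0.39 ± 0.13), which can switch on PMAIP1, were lower. FBXW7 was not called with library totals alone (0.40, adjusted p = 0.112), and of these 9 genes from 3 lists only NFKB1 was called with each library left out in turn. DDIT3 and FOXO1 were tested and not called. No gene of these lists was called for palbociclib or paclitaxel, as stated for the members.

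For each member called for JQ1, the genes with the most similar pattern across the 8 libraries were found by Pearson correlation of log2(CPM + 1) among genes averaging 20 CPM or more. PMAIP1 was nearest to CNOT2 (r = 0.987), CALCOCO2 (0.981) and DDOST (0.978), and BAK1 to TRAPPC3 (0.998), TCEB1 (0.997) and TYW3 (0.996). BID was nearest to ACSL4 (0.982), WTAP and ISG15 (both 0.975), and BCL2L1 to PLAT (0.968), DNAJC5 (0.963) and SH2B3 (0.952). These values describe 8 points that share their library totals, were the highest among the genes compared, and carry no p.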

How the data were processed

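The authors obtained UMI counts per gene and cell with 10x Genomics Chromium 3′ chemistry, Cell Ranger and alignment to hg19, and the deposited table held these counts without normalization. Libraries were taken from the deposited cell annotation. Counts of all cells were summed per library, since cells of 1 pool are not replicates. edgeR 4.0.16 (R 4.3.3) with TMM and its quasi-likelihood test compared 9288 genes, with Benjamini-Hochberg adjustment over all of them, 4 residual degrees of freedom in the additive and 2 in the interaction model. Standard errors came from the F statistic and are approximate. The fit was tested on simulated data. No library had a replicate within its experiment, so p-values of the additive model rest on the spread between libraries that share a drug. Those of the interaction model rest on pre-treatment beside DMSO and on JQ1-A beside JQ1-B. The first of these pairs differs in passaging and the second in experiment. Counting intervals are 95% and cover counting error only. Cells were thinned to 10000 UMIs for values per cell, and phases came from the lists of Seurat 5.3.0 scored within each library. Promoter windows and positions came from GRCh37 and GENCODE annotation lifted to it. The 10 members, the other lists and the tests were chosen with earlier results of these data known. All members were named, as were called genes of the other lists and the 3 most similar genes of each called member. Doublets were not called, and the top 5% of cells by UMIs were left out as a check. Alternatives were DESeq2 1.42.0, other scalings, minimums and cell sets, experiment as a term, 3 matched pairs and each library left out. Some items are not reported here.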

Additional observations from a re-analysis of the deposited data

Results flagged for a closer look

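The effect of JQ1 on BBC3 differed with and without paclitaxel, by a log2 interaction of 2.19 (edgeR's quasi-likelihood test, adjusted p = 0.0294). BBC3 was at 5.61 CPM in paclitaxel and 16.4 in JQ1+paclitaxel, against 21.1 in DMSO and 14.2 in JQ1-A. The paclitaxel value comes from 102 UMIs in 1 library, and the test measured no spread within paclitaxel or JQ1+paclitaxel. Of 16 interaction values tested over the 8 members, this was the only one called. In 40 groups of 4 or 6 libraries, 0 had a library past the critical gap, a measure with little power at these sizes. Paclitaxel came nearest to it among the libraries without JQ1, at 5.61 CPM of BBC3 against 17.7 to 21.5 and at 2.26 CPM of BCL2 against 0.785 to 1.06.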

How the results depend on the processing

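The JQ1 calls of PMAIP1 and BAK1 held in 18 of 19 alternatives, that of BCL2L1 in 17 and that of BID in 12. In the fit of 3 matched pairs of libraries 0 members were called, where 3.94% of all genes were, with PMAIP1 at -1.34 (adjusted p = 0.0512) and 2 residual degrees of freedom. With each library left out, the number of members called ranged from 3 to 5 for JQ1, 0 to 1 for palbociclib, 0 to 2 for JQ1 by palbociclib and 0 to 2 for JQ1 by paclitaxel. In the same refits 19.0 to 45.7%, 0.0 to 10.2%, 0.0 to 12.1% and 0.0108 to 12.4% of all genes were called. The leave-one-out refits and the 1 CPM minimum for the interactions, and the alternatives run on top of the 1 CPM minimum for BCL2 and BCL2L11, were chosen after seeing the data. BAD for JQ1 changed sign with library totals (-0.19), experiment as a term (-0.015), the top 5% of cells left out (-0.0012), equal library UMIs (-0.0061), 3 matched pairs (-0.00061) and the 1 CPM minimum (-0.020), and ran from -0.015 to 0.046 with each library left out. In the same refits BBC3 for JQ1 ran from -0.73 to 0.33, MCL1 for palbociclib from -0.075 to 0.95, BBC3 for paclitaxel from -1.96 to 0.59 and PMAIP1 for paclitaxel from -0.94 to 0.52. BBC3 for JQ1 was called without paclitaxel (-0.73, adjusted p = 0.0367) or JQ1+paclitaxel (-0.73, 0.0368), where 33.1 and 33.4% of all genes were. With all UMIs in place of thinned cells, the mean difference in the share of cells with a UMI was -13.4 percentage points for BAK1, -7.78 for BID, 3.44 for BCL2L11 and -3.68 for BAD. The causes of these changes were not tested. The balance difference stayed between 0.584 and 0.861 in the alternatives run. Depth limits BCL2 and BCL2L11, with 10 to 42 and 23 to 150 UMIs per library. Libraries were paired by experiment and partner drug only, since the groups share no replicate number beyond 1.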
